A study of Homo sapiens with 22 samples.

Results

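Regions of open chromatin in gene deserts were the 3126 accessible regions that lie more than 500 kb from the body of every protein-coding gene. Among regions called in at least 2 of the 22 libraries, they were chosen by position alone. ATAC-seq peaks of 22 libraries were merged on hg38 where they shared at least 1 base, the 69187 merged regions on chromosomes 1 to 22 and X that were called in at least 2 libraries were kept, and the distance to protein-coding genes was read from RefSeq. The desert regions made up 4.52% of these. They were set against the 53351 other regions more than 1 kb from the ends of protein-coding genes, while 12710 regions within 1 kb of such ends were kept as a separate class. ATAC-seq maps DNA that the Tn5 transposase can enter. The study profiled human multiple myeloma cell lines at baseline and after induced degradation of NSD2. KMS34, genotype t(4;14), was sampled at day 0, after NSD2LDD for 4 and 10 days, and after DMSO vehicle for 4 and 10 days. KMS11 was sampled at day 0 as a derivative of genotype TKO, and with its t(4;14) genotype at day 0, after NSD2LDD for 4 and 10 days, and after DMSO for 4 and 10 days. These are 11 groups of 2 libraries each. The sources used here give neither the meaning of TKO, nor the concentration of NSD2LDD, nor whether duplicates came from separate cultures, and p-values therefore cover no more than the spread among the libraries at hand. TKO was present at day 0 only, in 1 line, and how many clones it comes from is not stated there.

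Gene deserts are long stretches of the genome with no protein-coding gene. Some flank regulators of development and hold distant enhancers, while others have few known functions. In t(4;14) myeloma, a translocation places NSD2 under immunoglobulin heavy chain enhancers. NSD2 is a histone methyltransferase that dimethylates lysine 36 of histone H3, and where it is overproduced this mark spreads across intergenic chromatin. In the field, the name TKO has been used for KMS11 cells whose translocated NSD2 allele was disrupted. How open chromatin far from genes differed with these states is the comparison made here.

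Protein-coding genes are absent from deserts, but the RefSeq annotation places starts of long noncoding RNAs (lncRNAs) there, and these are the places where the reference sequence of a desert region can be shown. Of 654 lncRNA starts more than 500 kb from every protein-coding gene, 35 (5.35%) had a promoter window, taken as 250 bases before to 50 after the start, that overlapped a called desert region, against 15.3% of the windows of 9722 other lncRNA starts more than 1 kb from the ends of protein-coding genes. In 28 of the 35 the start base itself lay inside the region. The 35 windows had a median GC content of 47.3%, against 38.7% in those of the 619 desert starts without a region. Among the 35, 6 starts in 4 regions were called in all 22 libraries, 2 starts in 2 regions in every KMS34 and no KMS11 library, and 4 starts in 3 regions in every KMS11 and no KMS34 library. One promoter, from RefSeq on GRCh38.p14, is shown for each of the 8 of these 9 regions that held a start base, because they are the constant and the line-specific ends of the range. The ninth, at NIHCOLE, is not shown because its start lay outside its region. Capitals mark matches, on either strand, to the letters of 6 short motifs that are spelled out after the sequences. The printed matches do not overlap each other.
LINC00662 (called in all 22 libraries, chr19:27793891-27794190, minus strand): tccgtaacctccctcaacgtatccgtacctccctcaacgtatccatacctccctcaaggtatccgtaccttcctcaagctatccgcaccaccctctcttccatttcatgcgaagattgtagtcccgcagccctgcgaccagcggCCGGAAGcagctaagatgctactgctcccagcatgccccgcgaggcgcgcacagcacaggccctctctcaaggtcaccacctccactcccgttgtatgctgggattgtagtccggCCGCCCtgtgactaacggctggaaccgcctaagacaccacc
LINC02595 (called in all 22 libraries, chrX:45851441-45851740, minus strand): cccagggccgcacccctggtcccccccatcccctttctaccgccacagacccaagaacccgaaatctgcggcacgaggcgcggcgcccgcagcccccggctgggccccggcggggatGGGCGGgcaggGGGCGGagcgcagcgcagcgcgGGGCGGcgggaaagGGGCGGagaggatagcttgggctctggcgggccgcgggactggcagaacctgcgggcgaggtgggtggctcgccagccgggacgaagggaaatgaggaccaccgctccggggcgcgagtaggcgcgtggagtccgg
LOC107985242 (called in all 22 libraries, chr1:194289658-194289957, minus strand): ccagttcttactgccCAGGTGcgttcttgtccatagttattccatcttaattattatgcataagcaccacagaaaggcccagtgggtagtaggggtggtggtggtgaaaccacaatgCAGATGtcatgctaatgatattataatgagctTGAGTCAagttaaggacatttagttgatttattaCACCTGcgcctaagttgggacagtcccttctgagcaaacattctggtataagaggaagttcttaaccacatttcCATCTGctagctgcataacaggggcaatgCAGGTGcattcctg
LOC124904349 (called in all 22 libraries, chr18:39958860-39959159, plus strand): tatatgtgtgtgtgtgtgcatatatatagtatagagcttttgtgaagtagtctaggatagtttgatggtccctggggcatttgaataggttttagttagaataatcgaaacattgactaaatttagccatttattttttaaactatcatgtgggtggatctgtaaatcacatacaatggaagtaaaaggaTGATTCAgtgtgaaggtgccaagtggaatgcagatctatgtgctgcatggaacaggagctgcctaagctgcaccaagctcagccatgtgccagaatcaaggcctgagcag
LOC105374191 (called in KMS34 only, chr3:164450996-164451295, plus strand): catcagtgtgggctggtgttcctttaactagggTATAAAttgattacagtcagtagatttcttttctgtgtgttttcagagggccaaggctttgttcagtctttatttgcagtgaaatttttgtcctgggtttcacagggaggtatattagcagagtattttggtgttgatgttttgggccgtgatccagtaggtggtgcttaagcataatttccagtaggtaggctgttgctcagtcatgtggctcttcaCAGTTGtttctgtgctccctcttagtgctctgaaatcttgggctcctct
LINC03051 (called in KMS34 only, chr3:117997530-117997829, minus strand): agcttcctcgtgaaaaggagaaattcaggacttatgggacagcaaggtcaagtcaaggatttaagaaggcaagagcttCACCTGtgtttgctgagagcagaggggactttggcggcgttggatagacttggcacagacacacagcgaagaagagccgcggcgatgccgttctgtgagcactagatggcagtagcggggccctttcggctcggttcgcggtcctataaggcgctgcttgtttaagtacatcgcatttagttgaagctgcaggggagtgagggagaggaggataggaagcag
MIR4458HG (called in KMS11 only, chr5:8457437-8457736, plus strand): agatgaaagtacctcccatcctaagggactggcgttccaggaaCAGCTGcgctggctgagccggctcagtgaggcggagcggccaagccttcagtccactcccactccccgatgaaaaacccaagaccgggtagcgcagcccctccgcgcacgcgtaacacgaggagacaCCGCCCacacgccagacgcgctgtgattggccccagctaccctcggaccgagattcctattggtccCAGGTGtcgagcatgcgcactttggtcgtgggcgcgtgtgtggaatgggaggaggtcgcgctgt
LOC105377950 (called in KMS11 only, chr6:112879867-112880166, plus strand): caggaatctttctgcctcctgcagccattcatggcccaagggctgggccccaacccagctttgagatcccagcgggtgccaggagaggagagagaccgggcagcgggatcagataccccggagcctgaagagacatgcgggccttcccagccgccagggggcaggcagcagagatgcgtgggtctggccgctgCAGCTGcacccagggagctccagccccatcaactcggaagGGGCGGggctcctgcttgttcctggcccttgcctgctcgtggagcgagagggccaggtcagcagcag

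The promoters in regions called in every library differ in composition. LINC00662 and LINC02595 have GC contents of 59.3% and 75.7% and hold 1 and 4 GC boxes, while LOC107985242 and LOC124904349 have GC contents of 43.7% and 40.0% and hold no GC box and 1 AP-1 match each. The called region at LOC124904349 begins only at chr18:39959099. Most of the printed window, its AP-1 match included, thus lies outside that region. The GC box letters GGGCGG are in 8.41% of the 654 desert lncRNA promoters, of which 619 overlap no called region. They are in 45.0% of all 34961 RefSeq promoters of the same length. The TATA letters TATAAA are in 33.0% of the desert lncRNA promoters and in 11.5% of all promoters. The AP-1 letters TGANTCA, where N is any base, are in 13.1% of the desert promoters and 7.68% of all. For the E-box letters CANCTG the shares are 46.6% of the desert promoters and 49.9% of all, and for the ETS letters CCGGAAG they are 1.99% of the desert promoters and 10.3% of all. The CRE letters TGACGTCA are in 0.306% of the desert promoters and 1.85% of all. Of the 35 desert promoters that overlap a called region, 16 hold GC box letters, 11 TATA, 4 AP-1, 21 E-box, 1 ETS and 0 CRE. The low GC box share of the 654 thus does not describe these 35. A match is a description of these letters and not a bound site. The LOC105374191 start lies in a region between OTOL1 and SI that was called over 960, 1013.5 and 1220 bp (lowest, median and highest) in the 6 KMS34 day 0 and DMSO libraries and in none of the 12 KMS11 libraries. The LINC03051 start, between LSAMP and IGSF11, had 189, 546.5 and 1050 bp in the same KMS34 libraries and was called in no KMS11 library. The region that holds the separate starts of MIR4458HG and, on the opposite strand, LINC02226 lies between MTRR and SEMA5A. It was called in no KMS34 library and over 509, 822 and 983 bp in the 6 KMS11 day 0 and DMSO libraries. The LOC105377950 start, between RFPL4B and MARCKS, was called in no KMS34 library and over 163, 443 and 584 bp in the same KMS11 libraries. These starts were chosen for calls in every library of 1 line, TKO included, and none of the other. That the groups do not overlap, and that TKO called the KMS11 regions, follows from this choice. The TKO libraries covered 640 and 520 bp at MIR4458HG and 337 and 661 bp at LOC105377950.

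The deposited lists held between 24979 and 52518 peaks, with a median of 37598.5. The KMS34 lists were mostly longer than those of KMS11, and the shortest was replicate 2 of KMS11 day 0. The sequencing depth is unknown, so closed regions and regions sequenced too shallowly to be called cannot be told apart, and in bulk samples fewer cells with an open region cannot be told from less opening per cell. Copy number was not examined, and its part in uncalled regions and stretches was not tested. Of 10 plasma cell and myeloma marker genes, 7 had a peak within 1 kb of an end in all 22 libraries and none lacked a peak in every library, while 4 of 5 myeloid markers had no peak in any. The median marker of T and NK cells had a peak in 21 libraries, of stromal and endothelial cells in 8 and of B cells in 1, and the part of these genes in the results was not tested. Peaks do not measure NSD2 protein, so its loss under NSD2LDD or in TKO was not checked.

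Desert regions were narrower and called in fewer libraries than the others. Their median width was 541.5 bp, against 623 bp for other regions, and their median number of libraries was 7, against 9. Only 140 (4.48%) were called in all 22 libraries, against 9.92% of other regions. KMS34 alone called 1560 desert regions (49.9%), against 31.7% of other regions. KMS11 alone called 389 (12.4%), against 15.9%, and both lines called 1177 (37.7%), against 52.4%. The median desert region lay 771 kb from the nearest protein-coding gene, the farthest 4472 kb, and 870 lay more than 1000 kb away. No noncoding gene was annotated over 2332 of them, and 717 (22.9%) lay in lncRNA bodies. By separate counts that can overlap these, 133 lay in or within 1 Mb of the longest unannotated stretch of their chromosome, 35 lay in the immunoglobulin heavy chain locus and 4 in the kappa locus. A further 2131 desert regions were called in a single library and were no members. The limit of 500 kb did not fall at a step. The 378 regions 500 to 550 kb away were called at 48.6% in KMS34 day 0 and DMSO libraries, 15.9% in TKO and 29.2% in KMS11 day 0 and DMSO. The 469 regions just outside the limit, at 450 to 500 kb, were called at 50.0% in KMS34, 17.6% in TKO and 27.6% in KMS11.

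In every KMS11 library the desert regions were called less often than other regions, while in KMS34 the rates were close. TKO libraries called 17.6% and 15.9% of desert regions and 33.8% and 26.9% of other regions. KMS11 day 0 libraries called 31.8% and 19.6% of desert regions, against 42.4% and 25.0% of other regions. The 8 treated KMS11 libraries called 24.2 to 32.6% of desert regions and 37.7 to 45.9% of others. In the 10 KMS34 libraries, the desert rate lay between 33.0 and 59.5% and the other rate between 38.4 and 64.9%. The relative desert call rate is the log2 ratio of the desert rate to the other rate of the same library. It was above 0 in 2 of 22 libraries, both KMS34 under NSD2LDD (0.14 at day 4, replicate 1, and 0.03 at day 10, replicate 1). The plot of call rates by group shows both quantities.

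**Figure D1:**
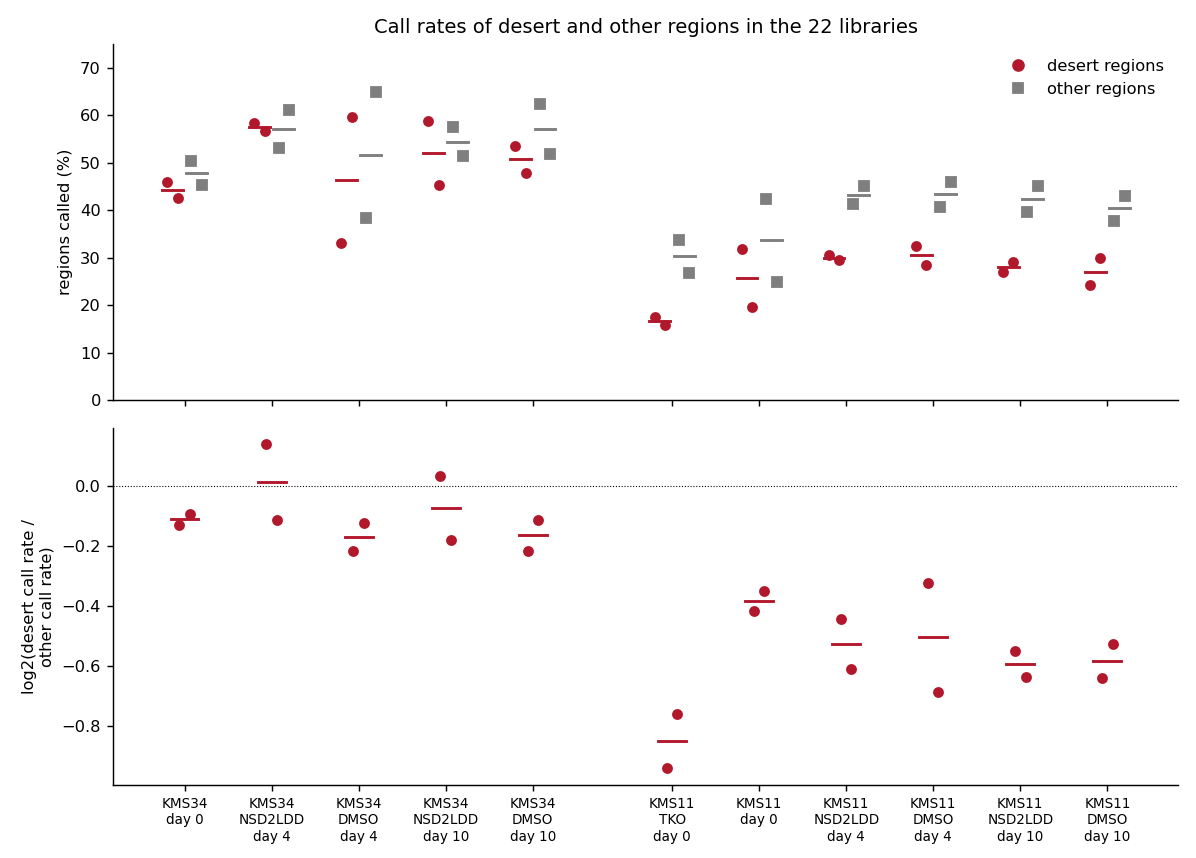
Percent of desert and other regions called (top) and the log2 ratio of the 2 rates (bottom) in each library; points are the 2 libraries of a group and bars their mean. The 2 TKO libraries hold the lowest ratios, -0.94 and -0.76, and every KMS34 library lies above every KMS11 library.

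TKO libraries called desert regions less often than KMS11 day 0 libraries, also relative to other regions. The relative desert call rate was -0.94 and -0.76 in TKO, with a mean of -0.85 ± 0.13, against -0.42 and -0.35 in KMS11 day 0, with a mean of -0.38 ± 0.05 (SD, n = 2 each). The difference was -0.47, and the groups did not overlap. With 2 libraries against 2, an exact two-sided permutation test cannot go below p = 0.333, so no test was made of it. Set against all 6 KMS11 day 0 and DMSO libraries, TKO was lower by a smaller margin, -0.36, with an exact two-sided permutation p of 0.0357, the smallest that 2 against 6 allow. The DMSO libraries were of days 4 and 10, unlike TKO. Regions of TKO alone entered the set only if both TKO libraries called them. Those of t(4;14) KMS11 alone could enter through any 2 of 10 libraries. Part of the difference may thus follow from how regions entered the set. Cutting all lists to the 24979 peaks of the shortest left the difference from day 0 at -0.50.

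The deficit in TKO was larger away from genes. Inside gene bodies, TKO libraries called 33.4% of regions on average and KMS11 day 0 libraries 35.6%, a log2 ratio of -0.09. At 1 to 50 kb the rates were 33.0% in TKO and 33.8% in KMS11 day 0, and at 50 to 100 kb they were 24.8% in TKO and 30.6% in KMS11 day 0. From 100 to 250 kb the log2 ratio was -0.60, from 250 to 500 kb -0.67 and beyond 500 kb -0.62. The ratio beyond 500 kb was thus close to that of the 5044 regions at 100 to 250 kb, which were called at 19.9% in TKO and 30.2% in KMS11 day 0. The 2 TKO libraries, at 17.6 and 15.9% beyond 500 kb, lay below the lower KMS11 day 0 library at 19.6%, whereas inside gene bodies they lay within the day 0 range of 26.4 to 44.7%.

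**Figure D2:**
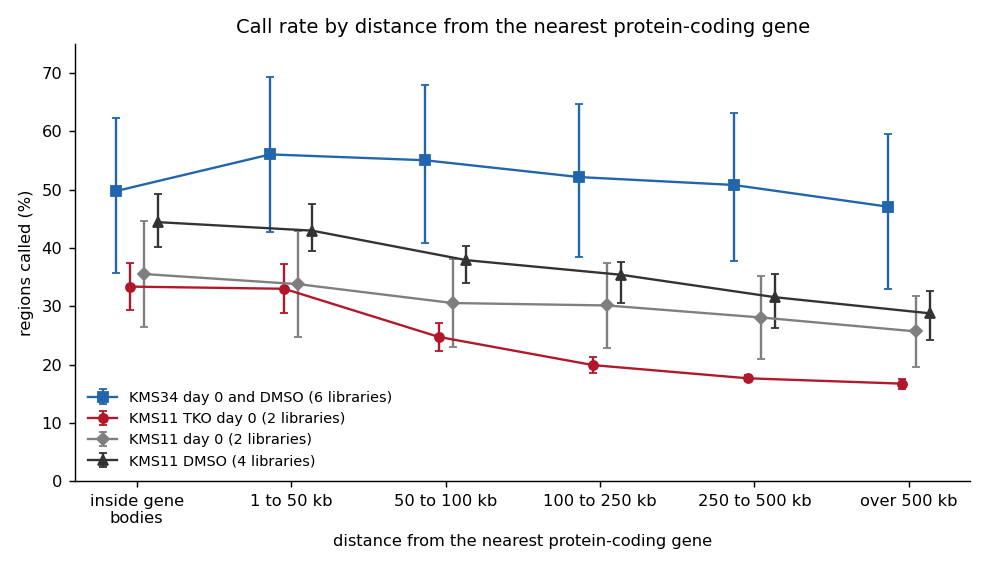
Mean percent of regions called by distance from the nearest protein-coding gene; bars run from the lowest to the highest library of each set. TKO and KMS11 day 0 means lie close to each other up to 50 kb (33.0% in TKO and 33.8% in KMS11 day 0 at 1 to 50 kb) and part beyond it, while KMS34 has its lowest mean, 47.1%, beyond 500 kb.

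Among regions called in all 8 KMS11 NSD2LDD and DMSO libraries, desert regions fell below other regions in TKO but not in KMS11 day 0. These 8 libraries share the genotype of KMS11 day 0 and not that of TKO. A lower rate in TKO than in KMS11 day 0 thus follows in part from this choice, in both classes of region. Of 494 desert regions called in all 8 KMS11 NSD2LDD and DMSO libraries, TKO libraries called 67.2% and 65.8%, and KMS11 day 0 libraries 98.6% and 83.0%. Of 13022 other regions with the same support, TKO called 82.3% and 76.9%, and KMS11 day 0 called 96.7% and 80.2%. Desert regions of full support were thus called at least as often as other regions in day 0 cells and less often in both TKO libraries. Among regions called in 1 to 7 of the 8 libraries the 2 classes were closer in TKO replicate 2, where desert regions were the higher at 1 and 4 of 8. Of 555 desert regions called in both KMS11 day 0 libraries, 195 (35.1%) were called in neither TKO library, against 2402 of 12444 other regions (19.3%). These 195 are 6.24% of all desert regions, beside a background of 3.99% over all regions. Conversely, 28 of 395 desert regions called in both TKO libraries (7.09%) were in neither day 0 library, against 9.24% of other regions. These 28 are 0.896% of all desert regions, beside a background of 1.89%.

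**Figure D3:**
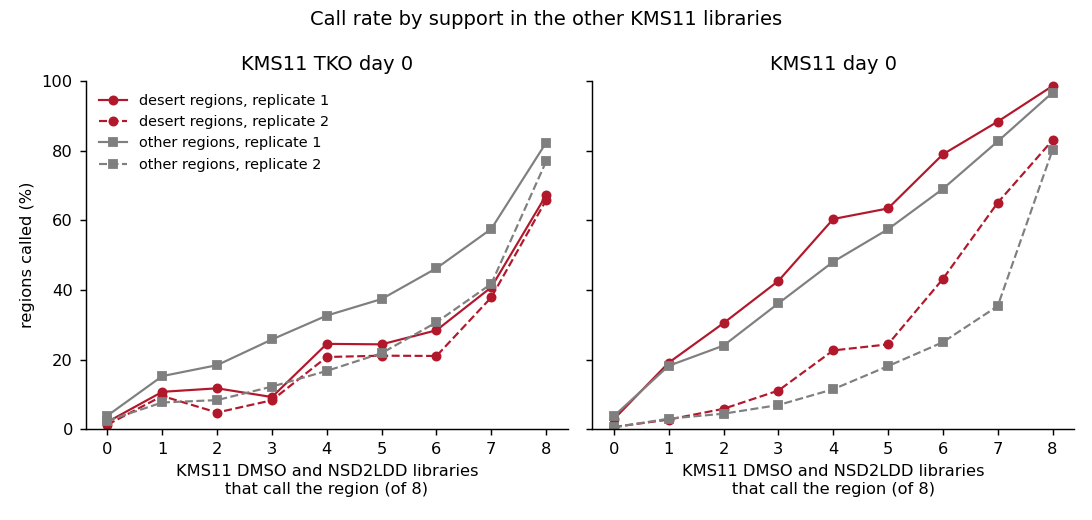
Percent of desert and other regions called in each TKO library (left) and each KMS11 day 0 library (right), by how many of the 8 KMS11 DMSO and NSD2LDD libraries call the region. At 8 of 8, desert regions lie at 67.2 and 65.8% in TKO below other regions at 82.3 and 76.9%, and above them in both KMS11 day 0 libraries.

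For single regions, the bases covered by peaks were compared with limma on a log2(covered bp + 100) scale across all 69187 regions. In TKO, 129 desert regions were lower and 12 higher than in KMS11 day 0 at a Benjamini-Hochberg adjusted p under 0.05. The desert shares were 4.13% lower and 0.384% higher, beside a background over all regions of 3.10% and 0.967%. The lower share was thus near the background and the higher share below it. The 129 lay on 21 chromosomes and in 90 of 278 stretches between neighbouring protein-coding genes, with at most 3 in 1 stretch. Of these, 92 were called in all 10 KMS11 libraries of genotype t(4;14). The KMS11 day 0 libraries are among these 10, so that count follows in part from the comparison. In KMS34, 63 of the 129 were called in all 10 libraries and 34 in none. Of all desert regions, 12.4% were called in no KMS34 library. The 129 were all called in KMS11 of genotype t(4;14), so these shares are not like for like.

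The 5 largest decreases were at regions with no call in either TKO library. Between RNF144A and ID2, which encodes an inhibitor of basic helix-loop-helix factors, a region at chr2:7633654-7634952 covered 0 and 0 bp in TKO, against 876 and 939 bp in KMS11 day 0 (log2 difference -3.47 ± 0.18 SE, limma adjusted p = 3.88e-08). All 10 KMS34 libraries called it, over 783 to 1080 bp, so it was open in every library but those of TKO. Next to it in size, a region at chr2:103436474-103437574 between TMEM182 and POU3F3, a transcription factor of neural development, covered 0 and 0 bp in TKO, against 826 and 832 bp in KMS11 day 0 (log2 difference -3.36 ± 0.58 SE, limma adjusted p = 0.00252). In LINC01692 between NCAM2 and MRPL39, chr21:24994450-24995831 covered 0 and 0 bp in TKO and 667 and 911 bp in KMS11 day 0. It passed the test at a limma adjusted p of 1.60e-06, but not on lists of equal length or on peaks of -log10 q of at least 5. At chr3:116947073-116948713, between the cell adhesion genes LSAMP and IGSF11, TKO again had 0 and 0 bp, against 730 and 737 bp in KMS11 day 0. Its limma adjusted p of 0.0313 was lost when any 1 of the 4 libraries was left out. The last, chr19:27672167-27673531 between ZNF254 and UQCRFS1, inside the longest unannotated stretch of chromosome 19, covered 0 and 0 bp in TKO, against 811 and 613 bp in KMS11 day 0 (limma adjusted p = 2.27e-08), and was called in all KMS34 libraries. A log2 difference against 0 bp depends on the 100 bp added and is no bound.

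The 5 largest increases were at regions that neither KMS11 day 0 library called. Between FAM133A and DIAPH2, chrX:94743017-94744089 covered 742 and 649 bp in TKO, against 0 and 0 bp in KMS11 day 0 (log2 difference 2.85 ± 0.55 SE, limma adjusted p = 0.00538), but 6 of the other KMS11 libraries and all KMS34 libraries called it. By contrast, chrX:82523240-82524137, between SH3BGRL and POU3F4, was called in the 2 TKO libraries alone, over 806 and 436 bp. Near IMMP2L, chr7:109692552-109693281 covered 427 and 360 bp in TKO and 0 bp in all 10 KMS11 libraries of genotype t(4;14), and was called in every KMS34 library. The region between AMY1C and PRMT6, chr1:105137448-105138252, had the same pattern with 573 and 319 bp in TKO. Between TRIB2 and LRATD1, the fifth covered 449 and 438 bp in TKO and was called in 1 KMS11 library of genotype t(4;14), at DMSO day 10. On lists of equal length the regions near DIAPH2, IMMP2L and PRMT6 no longer passed, and the one near LRATD1 did not pass in a fit of KMS11 libraries alone.

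**Figure D4:**
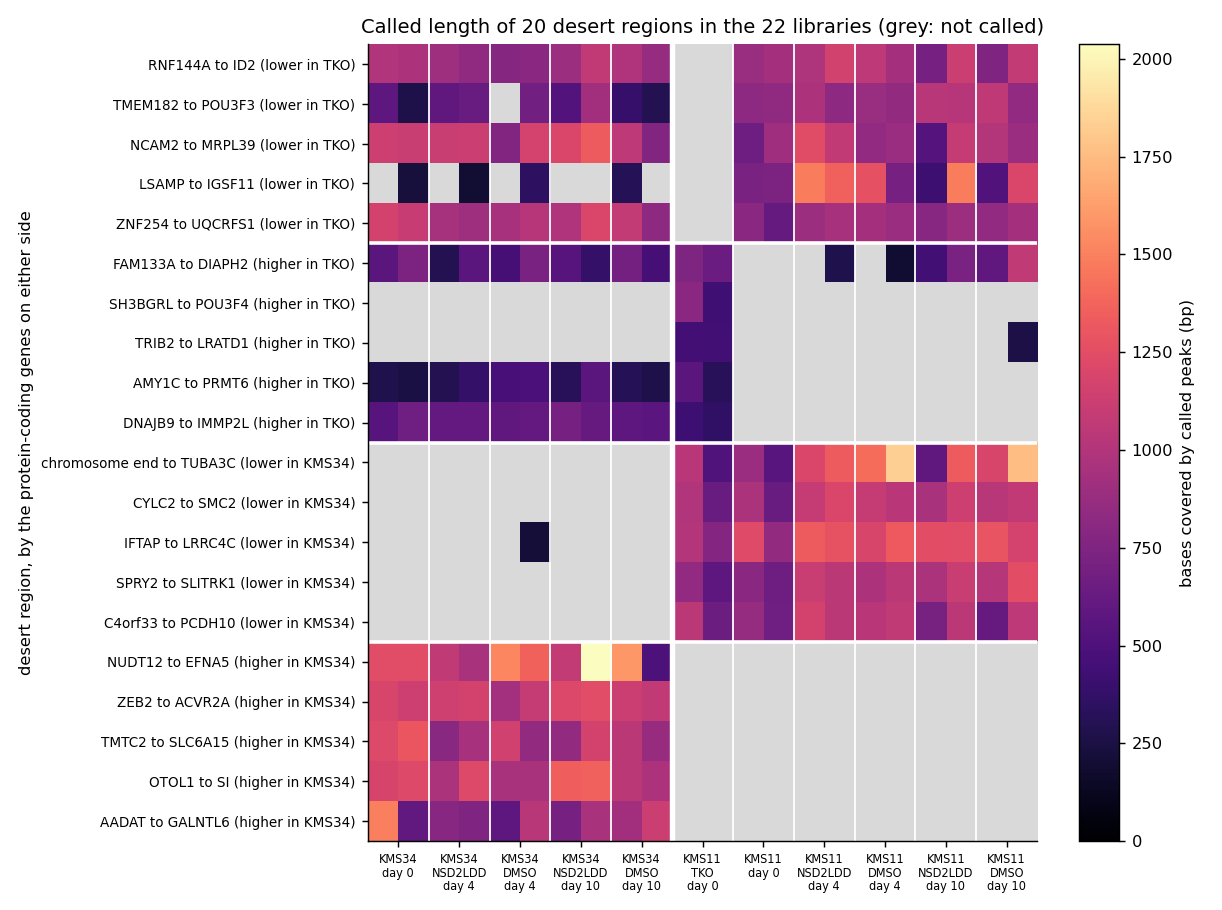
Bases covered by called peaks (colour, in bp) in each of the 22 libraries for the 5 desert regions with the largest change in each direction, TKO against KMS11 day 0 (upper 10) and KMS34 against KMS11 (lower 10); grey marks no call. All 5 regions lower in TKO are grey in both TKO libraries and coloured in all 10 KMS11 libraries of genotype t(4;14).

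Deserts differed among themselves. Of 278 stretches, 110 held at least 10 desert regions, and TKO had a lower mean call rate than KMS11 day 0 in 80 of them and a higher one in 19. Between CTNND2 and DNAH5 (11 regions), TKO libraries called 0% and 0%, against 36.4 and 63.6% in KMS11 day 0. Between PCDH7 and ARAP2 (18 regions), the TKO rates were 0 and 5.56%, against 38.9 and 44.4% in KMS11 day 0. The stretch from KCNJ2 to SOX9, a long desert whose distant enhancers are known to act on SOX9 in cartilage and gonads, held 13 regions, called at 7.69 and 23.1% in TKO and at 46.2% in both KMS11 day 0 libraries. It carried 3 of the 129 regions lower in TKO. From KCNV1 to CSMD3 (45 regions), TKO called none, against 11.1 and 20.0% in KMS11 day 0. Other large stretches showed no such difference. The most populated one, CDC73 to KCNT2 with 72 regions, was called at 19.4 and 25.0% in TKO and at the same 2 values in KMS11 day 0. From POT1 to GRM8 (20 regions) the order was turned, with 25.0 and 30.0% in TKO and 10.0 and 20.0% in KMS11 day 0. Most of these stretches were picked for their values, so no test was made of them.

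KMS34 called more of the desert than KMS11. In the day 0 and DMSO libraries the desert call rate averaged 47.1 ± 9.1% in KMS34 and 27.8 ± 5.0% in KMS11 (SD, n = 6 each), with no overlap. The rate at other regions averaged 52.2 ± 10.0% in KMS34 and 39.1 ± 7.4% in KMS11. The relative desert call rate was -0.15 ± 0.05 in KMS34 and -0.49 ± 0.15 in KMS11, a difference of 0.34, higher in 6 of 6 KMS34 libraries (exact two-sided permutation test, p = 0.00216, the smallest that 6 against 6 allow). Membership needed calls in at least 2 of the 22 libraries. KMS34 alone called 49.9% of desert and 31.7% of other regions, and KMS11 alone 12.4% and 15.9%. Such regions count as uncalled in the other line, so the test partly repeats how regions entered the set. List length moved with the line: cut to equal lists, the difference was 0.18 with an exact permutation p of 0.0563. The log2 ratio of KMS34 to KMS11 rates was 0.26 inside gene bodies, 0.49 at 1 to 50 kb, 0.63 at 50 to 250 kb, 0.74 at 250 to 500 kb and 0.76 beyond 500 kb.

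At single regions, limma called 400 desert regions lower and 742 higher in KMS34 than in KMS11 (day 0 and DMSO). The desert shares were 12.8% lower and 23.7% higher, beside a background over all regions of 14.2% and 20.0%. On lists of equal length the counts were 313 lower and 311 higher, so the excess of higher regions was not kept there. All 6 KMS34 and no KMS11 day 0 or DMSO library called 220 desert regions (7.04%), beside a background of 5.09%, and the reverse held for 116 (3.71%), beside 3.91%. Of the 3126 desert regions, 149 were called in all 10 KMS34 libraries and in none of the 12 KMS11 libraries. Among the 53351 other regions, 2016 had this pattern. Another 94 desert regions were called in all 10 KMS11 libraries of genotype t(4;14) and in no KMS34 library, beside 2061 other regions. Of these, 25 desert and 360 other regions were missing from both TKO libraries.

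The 5 largest increases in KMS34 were all-or-none. Between NUDT12 and EFNA5, an ephrin gene of axon guidance, chr5:106874498-106876535 covered 498, 1303.5 and 1595 bp (lowest, median, highest of 6) in KMS34 and 0 bp in each of the 6 KMS11 libraries (log2 difference 3.50 ± 0.23 SE, limma adjusted p = 1.38e-08). Between ZEB2, a repressor of epithelial genes, and ACVR2A, an activin receptor gene, chr2:146246084-146247368 covered 931, 1105.5 and 1193 bp in KMS34 and 0 bp in KMS11 (log2 difference 3.40 ± 0.19 SE, limma adjusted p = 3.20e-09). The region at the LOC105374191 start shown above was also among the 5 (log2 difference 3.35 ± 0.19 SE, limma adjusted p = 4.05e-09). The other two, between TMTC2 and SLC6A15 and between AADAT and GALNTL6, had log2 differences of 3.36 and 3.16. None of the 5 was called in any of the 12 KMS11 libraries, TKO included.

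The 5 largest decreases in KMS34 were at regions that every KMS11 library, TKO included, called. On the arm of chromosome 13 before TUBA3C, chr13:18272715-18274606 covered 0 bp in the 6 KMS34 libraries, against 552, 1302 and 1834 bp in the 6 KMS11 libraries (log2 difference -3.86 ± 0.19 SE, limma adjusted p = 1.35e-09). It lay next to the longest unannotated stretch of its chromosome. Between CYLC2 and SMC2, a condensin subunit gene, chr9:103532694-103533931 covered 0 bp in KMS34 and 637, 1038 and 1093 bp in KMS11. Near SLITRK1, a neuronal membrane protein gene, chr13:83221180-83222468 covered 0 bp in KMS34 and 664, 994.5 and 1256 bp in KMS11. In LINC02377 near PCDH10, a protocadherin gene, the lengths were 0 bp in KMS34 and 628, 950.5 and 1071 bp in KMS11. The remaining region, between IFTAP and LRRC4C, was called in 1 KMS34 library over 209 bp and in all KMS11 libraries.

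Stretches again varied more than their mean. KMS34 had the higher mean rate in 87 of the 110 stretches with at least 10 desert regions. Between EDEM1 and GRM7, KMS34 called 63.6 ± 11.5% of 11 regions, and the 6 KMS11 libraries and TKO called none of them. Between SNX16 and RALYL (32 regions) the mean rates were 59.9 ± 13.0% in KMS34 and 3.12 ± 2.80% in KMS11. The stretch from OTOL1 to SI (60 regions) had 50.0 ± 8.9% in KMS34 and 22.5 ± 3.8% in KMS11. Between MAT2B and TENM2 (70 regions), the rates were 50.7 ± 8.0% in KMS34 and 6.90 ± 1.67% in KMS11. The opposite was seen from VRK1 to BCL11B, a transcription factor of T cell development, where 13 regions were called at 28.2 ± 4.0% in KMS34 and 66.7 ± 11.6% in KMS11 (SD, n = 6 each in this paragraph). Stretches other than the 3 most populated ones were named after their values were seen.

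**Figure D5:**
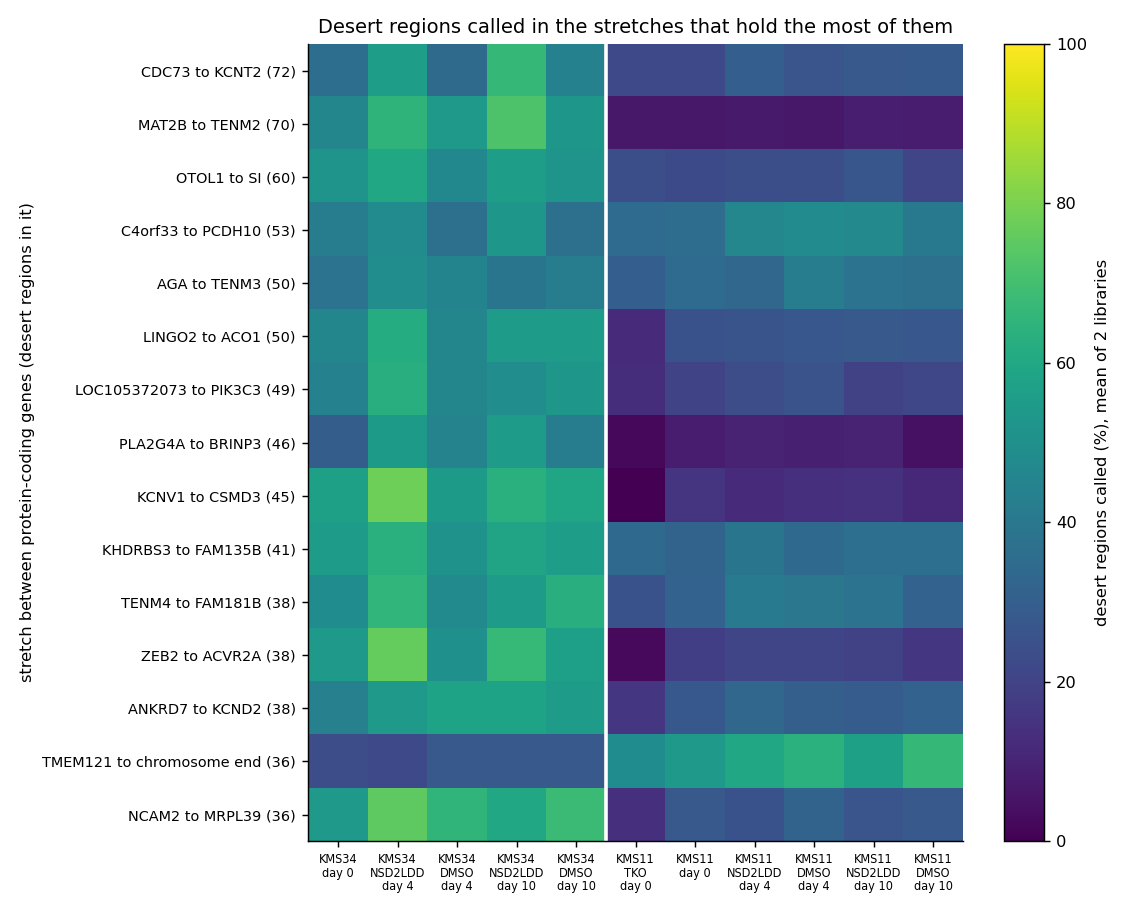
Percent of desert regions called, as the mean of the 2 libraries of each group, in the 15 stretches that hold the most desert regions, named by the protein-coding genes on either side with the number of regions in brackets. KMS34 columns are brighter in most stretches, the stretch after TMEM121 on chromosome 14 is brighter in KMS11, and KCNV1 to CSMD3 is at 0 in TKO.

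NSD2LDD did not move the relative desert call rate of KMS11 beyond the spread between libraries. It was -0.44 and -0.61 at day 4 and -0.55 and -0.64 at day 10 under NSD2LDD, against -0.32 and -0.68 at day 4 and -0.64 and -0.53 at day 10 under DMSO. The means were -0.56 ± 0.09 under NSD2LDD and -0.54 ± 0.16 under DMSO (SD, n = 4 each), and the groups overlapped. The difference was -0.01 (exact two-sided permutation p = 0.914). It was -0.02 at day 4 and -0.01 at day 10. The desert call rate itself averaged 29.0 ± 1.5% under NSD2LDD and 28.8 ± 3.5% under DMSO. The TKO libraries, at -0.94 and -0.76, were below all 4 NSD2LDD libraries.

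Limma called 2 desert regions lower and 2 higher (0.064% each) under NSD2LDD in KMS11, with a background of 0.0318% lower and 0.0376% higher over all regions. Near REEP3, chr10:64219158-64220010 covered 490 and 538 bp at day 4 and 0 and 0 bp at day 10 under NSD2LDD, against 793 and 632 bp at day 4 and 472 and 499 bp at day 10 under DMSO (log2 difference -1.48 ± 0.17 SE, limma adjusted p = 0.00407). Neither TKO library called it, and all KMS34 libraries did. In LINC02237 near CSMD3, chr8:111387026-111387601 covered 576, 472, 382 and 339 bp under NSD2LDD and 0 bp in the 4 DMSO libraries (log2 difference 2.41 ± 0.33 SE, limma adjusted p = 0.0102). It had 366 and 0 bp in KMS11 day 0, and its difference was gone on lists of equal length. The other lower region, between ZNF254 and UQCRFS1, and the other higher one, in the kappa light chain locus, had limma adjusted p-values of 0.0289 and 0.0336 and lost their calls in 6 and 14 of the 22 fits that each left out 1 library. In a limma fit of KMS11 libraries alone, 0 desert regions passed, with 89 at an unadjusted p under 0.05.

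In KMS34, desert regions were called somewhat more often under NSD2LDD, but the libraries overlapped. The relative desert call rate was 0.14 and -0.11 at day 4 and 0.03 and -0.18 at day 10 under NSD2LDD, against -0.22 and -0.13 at day 4 and -0.22 and -0.11 at day 10 under DMSO. The means were -0.03 ± 0.14 under NSD2LDD and -0.17 ± 0.06 under DMSO (SD, n = 4 each). The difference was 0.14 with an exact two-sided permutation p of 0.114, higher than every DMSO library in 3 of 4 NSD2LDD libraries. It was 0.18 at day 4 and 0.09 at day 10. Without replicate 2 of NSD2LDD day 10, the lowest of its group, the difference was 0.19 with an exact permutation p of 0.0286, the only left-out library that brought it past 0.05. The difference between the NSD2LDD effects in KMS34 and KMS11 was 0.15, with a permutation p of 0.221.

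At single regions, limma called 13 desert regions lower and 60 higher under NSD2LDD in KMS34, which are desert shares of 0.416% and 1.92%, beside a background over all regions of 0.344% lower and 0.642% higher. These calls did not hold well. In a limma fit of KMS34 libraries alone 0 desert regions passed, with 236 at an unadjusted p under 0.05, and the total of 73 moved by more than 1.5 times when any 1 of 18 of the 22 libraries was left out, to as few as 12. The exceptions were both KMS34 day 0 libraries and replicate 2 of DMSO at day 4 and at day 10. Most regions higher under NSD2LDD were called seldom: their median was 3 of 10 KMS34 libraries, and 59 of 60 were in no KMS11 library of genotype t(4;14). The steadiest of the named ones, chr12:73589293-73589750 between TRHDE and ATXN7L3B, covered 299 and 427 bp at day 4 and 286 and 356 bp at day 10 under NSD2LDD, against 0 bp in the 4 DMSO libraries (log2 difference 2.16 ± 0.26 SE, limma adjusted p = 0.00199). It had 360 and 243 bp at KMS34 day 0, so it was also called at day 0. In LINC01192 between OTOL1 and SI, chr3:163189590-163190201 covered 612 and 210 bp at day 4 and 272 and 353 bp at day 10 under NSD2LDD and was called in no other library (limma adjusted p = 0.00299). It lost its call on peaks of -log10 q of at least 5 and under quantile normalization. Near CDH8, a cadherin gene, chr16:60632704-60633209 covered 311, 296, 319 and 430 bp under NSD2LDD and 0 bp under DMSO, with 0 and 232 bp at day 0, and lost its call without replicate 1 of DMSO at day 10. The other two named increases, near PLOD2 and in MIR924HG, lost their calls in 11 and 19 of the 22 fits that each left out 1 library. All 5 named decreases rested on 3 of 4 DMSO libraries, and the largest, near SOX9, covered 0 bp in all 4 libraries under NSD2LDD, against 0, 310, 337 and 344 bp under DMSO (limma adjusted p = 0.0466). Each of these decreases lost its call in 18 to 21 of such fits.

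Counts in which all libraries of one side and none of the other called a region use no model. Under NSD2LDD in KMS34, 12 desert regions (0.384%) were called in all 4 treated and no DMSO library, against a background of 0.124%. In no treated and every DMSO library, 0 (0%) were called, against 0.0578%. In KMS11 the counts were 3 (0.096%) and 1 (0.032%) in the same order, against 0.0593% and 0.0405%. The NSD2LDD effects of the 2 lines differed at no desert region by limma after adjustment, with a background of 0.00289% in each direction and 309 desert regions at an unadjusted p under 0.05. Among the 110 stretches, 89 had a higher mean rate under NSD2LDD than under DMSO in KMS34. From CDC73 to KCNT2 the rates were 61.1 ± 8.0% under NSD2LDD and 39.2 ± 13.1% under DMSO, and from ZEB2 to ACVR2A 71.7 ± 7.9% under NSD2LDD and 53.3 ± 9.5% under DMSO (SD, n = 4 each). These stretches share libraries with each other and their number is no count of independent changes.

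Deserts beside developmental regulators were compared with those beside neuronal and adhesion genes. Of 70 developmental regulators, 18 were the nearest protein-coding gene of 88 desert regions, among them 6 lower (6.82%) and 0 higher in TKO, beside the background over all regions of 3.10% lower and 0.967% higher. With a listed gene on either side, 157 desert regions held 8 lower and 0 higher. The 88 nearest regions were called at 27.8% in TKO and 42.6% in KMS11 day 0. Over day 0 and DMSO libraries they were called at 50.2% in KMS34 and 43.6% in KMS11. Of 65 neuronal and adhesion genes, 40 were nearest to 453 desert regions, with 18 lower (3.97%) and 1 higher (0.221%) in TKO, and 859 had one on either side, with 32 lower and 2 higher. The rates of the 453 nearest regions were 15.0% in TKO and 23.3% in KMS11 day 0, and 48.6% in KMS34 and 24.8% in KMS11. In KMS34 against KMS11, limma called 19 lower (21.6%) and 14 higher (15.9%) where a developmental regulator was nearest, and 46 lower (10.2%) and 106 higher (23.4%) where a neuronal or adhesion gene was. The shares over all desert regions were 12.8% lower and 23.7% higher, and the background over all regions 14.2% and 20.0%. With a listed gene on either side, the counts were 31 lower and 30 higher for developmental regulators and 95 lower and 205 higher for neuronal and adhesion genes. The median log2 difference of KMS34 from KMS11 for the nearest regions was 0.13 for developmental regulators and 0.25 for neuronal and adhesion genes, against 0.23 over desert regions and 0.14 over all regions tested. The shares beside neuronal and adhesion genes were thus close to those of all desert regions.

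The 140 desert regions called in every library were ranked by the authors' -log10 q within each library. The region of highest median rank among them was chr1:125180045-125180482, inside the longest unannotated stretch of chromosome 1, at a median percentile of 99.96 and with 310 to 397 bp in every library. It was also among the 5 farthest from any protein-coding gene, 3716915 bp from LINC02798, which RefSeq lists as protein-coding. The second, chr5:18698102-18698798 between H3Y1 and CDH18, a cadherin gene of the nervous system, had a median percentile of 99.5. The others were near TRIB1 (99.3), between LOC107987004 and LOC107987067 on chromosome 9 (98.5) and between RAPGEF2 and FSTL5 (97.6). Being called everywhere did not mean an equal length, since the chromosome 9 region, chr9:63816675-63818523, covered 1663 to 1826 bp in the 10 KMS34 libraries and 914 to 1265 bp in the 12 KMS11 libraries. All desert peaks together ranked lower, with a median percentile of 37.9 ± 1.3 in KMS34 (SD, n = 10) and 38.6 ± 1.0 in KMS11 of genotype t(4;14) (SD, n = 10), against 43.7 ± 2.3 and 41.5 ± 1.6 for peaks in other regions. The 3 regions farthest from any protein-coding gene lay on the arm of chromosome 22 before OR11H1, 4153718 to 4471598 bp away. Of these, 1 was called in 3 and 1 in 9 KMS34 libraries, with no call in KMS11, and 1 in 9 KMS11 libraries, with no call in KMS34 or TKO.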

How the data were processed

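ATAC-seq libraries were made from 22 samples in 11 groups of 2, as labelled. Per the submitters' processing notes, the tools were MACS3, Picard, BWA, deepTools, SAMtools and fastp, and the build was hg38; the sources used here give no versions, roles or settings. The authors deposited 1 peak list per library, with other columns for peak position and summit offset, a score, a fold (ratio) over background, and −log10 p and −log10 q. Every deposited −log10 q was above 2. From these, peaks were merged in Python 3.11.15 with NumPy 2.4.6 and pandas 2.3.3. Distances were measured to 19821 protein-coding genes of RefSeq GRCh38.p14, leaving out 153 genes placed on scaffolds. A region was called where a peak overlapped it. The bases covered, as log2(bp + 100) less each library's median over regions called in all libraries, were fitted with limma 3.58.1 (R 4.3.3, with trend and robust settings) on 11 group means over 22 libraries, and p-values were adjusted by Benjamini-Hochberg over all 69187 regions. Call rates were compared by exact permutation tests over libraries in Python 3.11.15 with NumPy 2.4.6. The fits were tested on simulated data. Named regions were the 5 largest changes in each direction among those called by limma (under NSD2LDD, those moving the same way at both days), the 5 strongest in all libraries, the 5 farthest from genes and the 3 most populated stretches. The members and lists were chosen with earlier results of these data known. Alternatives covered the −log10 q and distance limits, list length, scaling, bases added, gene types, a replicate block and each library left out.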

Additional observations from a re-analysis of the deposited data

Results flagged for a closer look

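The desert call rate of replicate 2 of KMS34 under NSD2LDD at day 10 was 45.4%, far below the other 3 KMS34 NSD2LDD libraries at 58.4, 56.6 and 58.9%. Its gap to the nearest of them took up most of the range of the 4 libraries. It was the 1 such case among 18 sets of libraries examined, and chance alone gives about 1 in 20. The library's list of 42268 peaks was the shortest of the 4, and its median peak width was 583 bp, against 404 to 421 bp in the other 3. Its rate at other regions was 51.4%, against 53.2 to 61.2%. The part of list length and peak width in this value was not tested.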

How the results depend on the processing

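The lower relative desert call rate in TKO than in KMS11 day 0 (-0.47) kept its direction under every alternative run, from -0.51 to -0.36, the last against KMS11 day 0 and DMSO together. It ranged from -0.56 to -0.38 when each library was left out. The higher rate in KMS34 than in KMS11 (0.34) was 0.18 on lists of equal length and -0.31 when genes of every type set the distance, which leaves 30 regions. It ranged from 0.30 to 0.37 with each library left out. The NSD2LDD difference in KMS11 (-0.01) changed sign to 0.0046 for peaks with −log10 q of at least 5 and to 0.0084 against intergenic regions only, and ranged from -0.062 to 0.058 with each library left out. In KMS34 (0.14) it was -0.46 for the 30 regions far from genes of every type, and 0.081 to 0.19 with each library left out. Limma counts in TKO (141) were 312 at 250 kb and 29 at 1000 kb, and 102 to 142 with each library left out. Counts for KMS34 against KMS11 (1142) were 624 on lists of equal length, with the balance of directions turned, 2489 at 250 kb and 299 at 1000 kb, and 1000 to 1189 with each library left out. Counts under NSD2LDD in KMS11 (4) were 8 for −log10 q of at least 5, 15 each for equal lists, no scaling and quantile normalization, 20 and 2 with 30 and 300 bp added, 18 without trend and robust settings, 2 for regions called in at least 1 library, 0 for KMS11 alone, 1 at 1000 kb, and 2 to 8 with each library left out. Those in KMS34 (73) were 154 with no scaling, 166 and 7 with 30 and 300 bp added, 162 without trend and robust settings, 9 and 12 for regions called in at least 1 and 4 libraries, 0 for KMS34 alone, 145 at 250 kb and 28 at 1000 kb, and 12 to 86 with each library left out. The count of desert regions where the NSD2LDD effects of the lines differ (0) was 5 for −log10 q of at least 5, 9 for equal lists, 7 with no scaling and with 30 bp added, 13 with quantile normalization, 12 without trend and robust settings, and 0 to 2 with each library left out. Among single named regions, only chr8:111387026-111387601 changed sign, to -0.0024 on lists of equal length, and 211 of the other values lost their call while 882 kept it. Chosen after the data were seen, leaving out receptor loci and regions near the longest unannotated stretches gave -0.49 for TKO, -0.01 and 0.15 for NSD2LDD in KMS11 and KMS34, and 0.40 for KMS34 against KMS11, and keeping scaffold genes gave -0.47 for TKO. The causes of these changes were not tested. Whether replicate numbers mark pairs is not known. Median correlations between equally numbered libraries were -0.05 in KMS11 and -0.01 in KMS34, over groups of equal and of different days. Between NSD2LDD and DMSO of the same day they were 0.07 (day 4) and 0.21 (day 10) in KMS11. In KMS34 they were 0.09 (day 4) and -0.03 (day 10). Between TKO and KMS11 day 0 the correlation was 0.12. With the number as a replicate block, limma counts were 133 in TKO, 2 under NSD2LDD in KMS11, 9 in KMS34, 875 for KMS34 against KMS11 and 0 for the difference of NSD2LDD effects. The permutation p for NSD2LDD within pairs was 0.75 in KMS11 and 0.375 in KMS34. List lengths and 2 libraries per group limit what can be seen, and depth is unknown.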

Other observations

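The immunoglobulin heavy chain locus at the end of chromosome 14, whose gene segments RefSeq does not class as protein-coding genes, held 35 desert regions with the opposite order of lines. They were called at 25.7 ± 6.3% in KMS34 and 61.0 ± 12.3% in KMS11 over day 0 and DMSO libraries (SD, n = 6 each), and at 47.1 ± 6.1% in TKO and 54.3 ± 20.2% in KMS11 day 0 (SD, n = 2 each). The 133 desert regions in or near the longest unannotated stretch of a chromosome were called at 42.7 ± 7.4% in KMS34 and 38.2 ± 7.0% in KMS11. By chromosome, the mean desert rate was higher in KMS34 than in KMS11 on all but chromosomes 14, 15 and 22. It differed most on chromosome 8, where the 196 desert regions were called at 55.3% in KMS34 and 17.0% in KMS11, while other regions of chromosome 8 were called at 54.6% in KMS34 and 34.8% in KMS11. On chromosome 14 the 129 desert regions were called at 36.0% in KMS34 and 43.0% in KMS11. The 54 desert regions of chromosome 16 had the lowest TKO rate of any chromosome, 2.78%, against 17.6% in KMS11 day 0. Of the 129 desert regions lower in TKO than in KMS11 day 0, 63 (48.8%, or 15.8% of 400) were also lower in KMS34 than in KMS11 and 10 were higher, and these comparisons share the KMS11 day 0 libraries.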
